A study of Mus musculus with 2 samples.

Results

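The genes examined were 10 that encode sequence-specific transcription factors of housekeeping promoters, namely Nfya, Nfyb and Nfyc, Sp1 and Sp3, Gabpa, Nrf1, Yy1, Thap11 and Zbtb33. The genes were chosen by name, out of 21938 nuclear protein-coding genes of GENCODE mouse release 21. Earlier results of these data were known at that choice, so the counts below are a description. The promoters of the 10 genes were searched for peaks of the chromatin remodeler SRCAP. SRCAP was mapped by CUT&Tag, in which an antibody directs the Tn5 transposase to the protein, in 2 replicates of 1 group, SYAT mouse embryonic stem cells in the control condition. SYAT cells derive from CGR8 cells in which both Srcap alleles carry a fusion to YPet, a yellow fluorescent protein, and to AID, a degron that auxin activates, so an anti-GFP antibody (ab290) detects the tagged protein. They come from 1 homozygous clone that was transduced with the auxin receptor OsTir1 and sorted for loss of YPet after auxin, and the medium of the control cells contained auxinole, which blocks that receptor, together with serum and LIF. Auxin-treated cells were not analysed here, so the data compare genes and replicates, not conditions. In the study, replicates were in general cultured and treated separately.

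SRCAP is the ATPase of a complex that places H2A.Z into nucleosomes in exchange for canonical H2A. This variant is enriched in the nucleosomes that flank active and poised transcription start sites (TSSs). The factors encoded by the 10 genes bind short motifs that are common in promoters rich in CpG dinucleotides. NF-Y, a trimer of the products of Nfya, Nfyb and Nfyc, binds CCAAT. SP1 and SP3 are zinc finger proteins that share the GC box GGGCGG. GABPA is an ETS factor of CCGGAAG, and NRF1, a regulator of nuclear genes for mitochondrial respiration, binds CGCATGCG. YY1 is a zinc finger protein of AANATGGC, THAP11 (Ronin) is a zinc finger protein needed for the self-renewal of embryonic stem cells that binds ACTACAA, and ZBTB33 (Kaiso) binds methylated CpGs and CTCGCGAG.

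Promoter windows reached from 1000 bp before to 500 bp after every annotated TSS of a gene, and a gene was called in a replicate when a peak of that replicate overlapped a window by at least 1 bp. Promoter peaks were called at 5 of the 10 genes in replicate 1 (Nfya, Nfyc, Sp1, Sp3 and Gabpa), against 15.7% of all protein-coding genes (95% Wilson interval 15.2 to 16.2%, 3445 of 21938). In replicate 2 they were called at 9 of the 10, all but Zbtb33, against 30.4% of all genes (29.8 to 31.0%, 6660 of 21938). The 5 genes called in replicate 1 were all called again in replicate 2, so that 5 of 10 had a peak in both replicates, against 12.0% of all genes (11.6 to 12.5%, 2643 of 21938). Yy1, Nfyb, Nrf1 and Thap11 were called in replicate 2 only, and none of the 10 in replicate 1 only. The list of replicate 2 was the longer, with 12958 peaks against 6158, and read numbers are unknown, so a gene called in replicate 2 only was not shown to differ between the replicates. The intervals cover counting error over genes, which are not replicates, and no test was made of the members' counts. The background was not matched for gene activity, and the study reports tagged SRCAP preferentially at active TSSs. Whether activity bears on these counts was not tested.

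**Figure D1:**
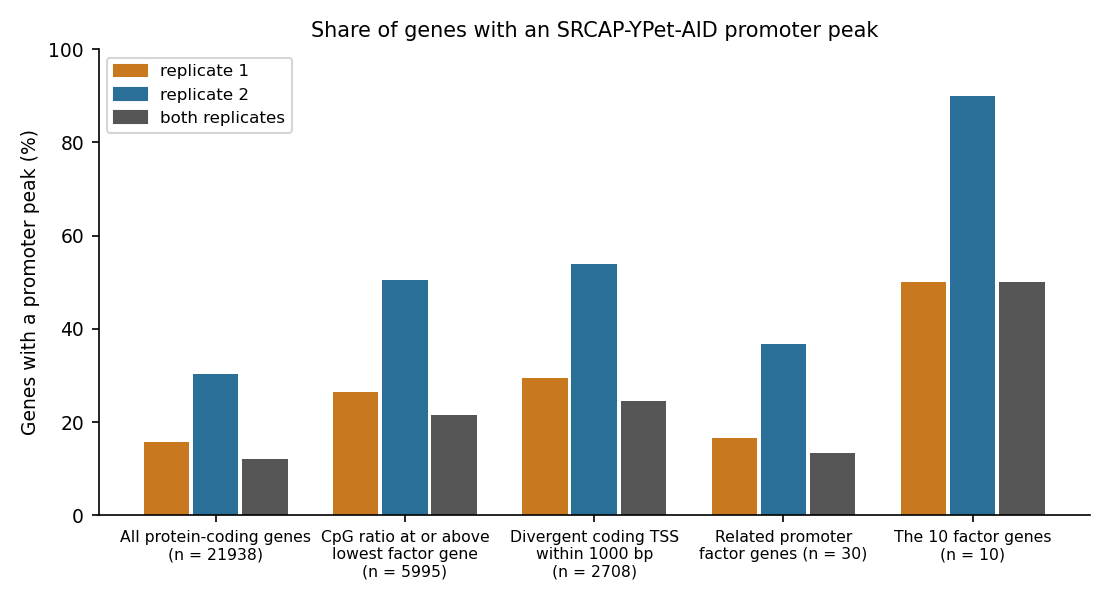
Share of genes (%) called in each replicate and in both of them, for all protein-coding genes, for genes with a CpG ratio at or above the lowest of the 10, for genes with a divergent coding TSS within 1000 bp, for 30 related promoter factor genes and for the 10 factor genes. The bars of the 10 genes stand at 50%, 90% and 50%, and those of all protein-coding genes at 15.7%, 30.4% and 12.0%.

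The 10 genes have CpG-rich promoters, and such promoters were called more often in general. The CpG ratio, the number of CpGs over that expected from the C and G content, was taken in the window of each gene where it was highest. It ran from 0.718 at Sp1 to 1.06 at Yy1 with a median of 0.856, while the median of all protein-coding genes was 0.553. Of the 5995 genes with a ratio at or above that of Sp1, the calls covered 26.5% in the first replicate, 50.4% in the second and 21.5% in both lists. Beside this background the counts of 5, 9 and 5 of 10 stand less far apart than beside all genes. The 10 genes also have more annotated TSSs, a median of 5.5 against 3, and more promoter sequence, a median of 5777.5 bp against 3002 bp. With 1 TSS per gene, the 5′ end of the gene record, the counts were 4, 8 and 4 of 10 against 13.6%, 26.4% and 10.4% of all genes, the gene lost being Nfyc. With replicate 2 shortened to its 6158 strongest peaks, 6 of the 10 were called there, against 19.2% of all genes, and Nfyb, Nrf1 and Sp3 lost their call in that replicate.

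**Figure D2:**
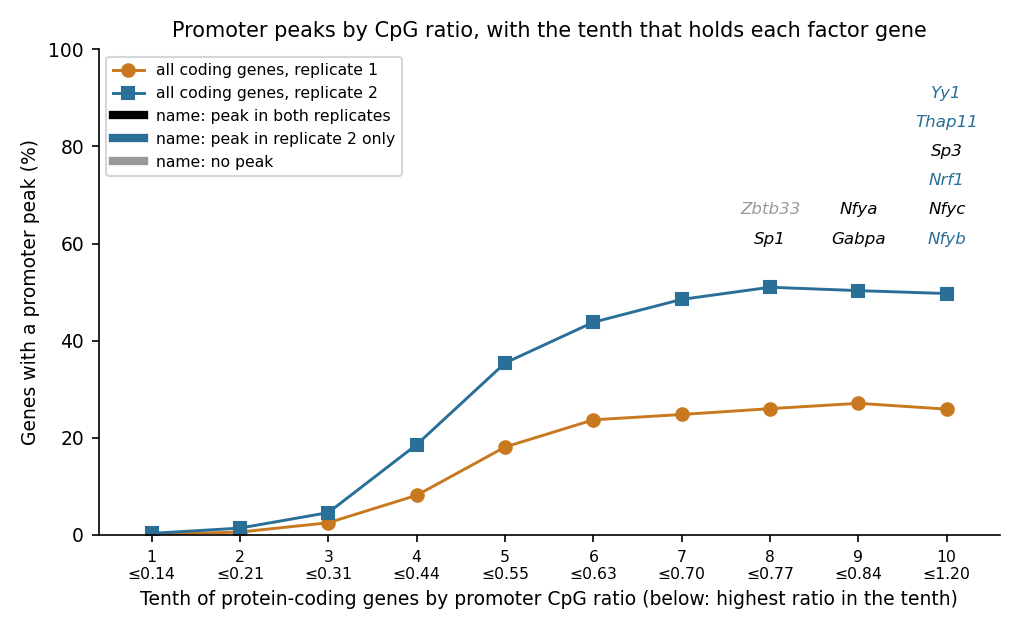
Share of protein-coding genes (%) with a promoter peak in each replicate, for 10 groups of equal size ordered by promoter CpG ratio, with the name of each factor gene above the group that holds it. The share rises from the lowest CpG ratios to group 6 and then lies between 23.7% and 27.1% in replicate 1 and between 43.8% and 51.0% in replicate 2, and the 10 genes are in groups 8 to 10.

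The midpoints of most peaks at the called genes lay upstream of the nearest GENCODE TSS. Each called gene had 1 promoter peak per replicate, which gave 5 peaks in replicate 1 and 9 in replicate 2, and none held coding sequence. All 5 genes called in both replicates had peaks that overlapped between replicates, as did 2498 of 2643 of all genes called in both (94.5%). In replicate 2, 8 of the 9 midpoints lay upstream of the nearest TSS of the gene (88.9%, against 52.2% of 6994 gene-peak pairs over all coding genes), and in replicate 1, 3 of 5 (against 52.4% of 3515 pairs). These counts depend on the annotation: measured from the nearest RefSeq start of the gene, all 5 and all 9 midpoints lay upstream, against 51.4% of 2798 and 49.8% of 5501 pairs over the coding genes with such a start. Midpoints lay a median of 266 bp (replicate 1) and 245 bp (replicate 2) from the nearest GENCODE TSS, against 136 bp and 138.5 bp over all pairs. From RefSeq starts the medians were 256 bp and 232 bp, against 189 bp and 194 bp over the pairs with such a start, a smaller contrast. A TSS of the gene lay inside the peak for 3 of 5 and 5 of 9 peaks, against 61.2% and 65.7% over all pairs. Median widths were 371 bp and 380 bp, against 356 bp and 416 bp over all pairs.

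**Figure D3:**
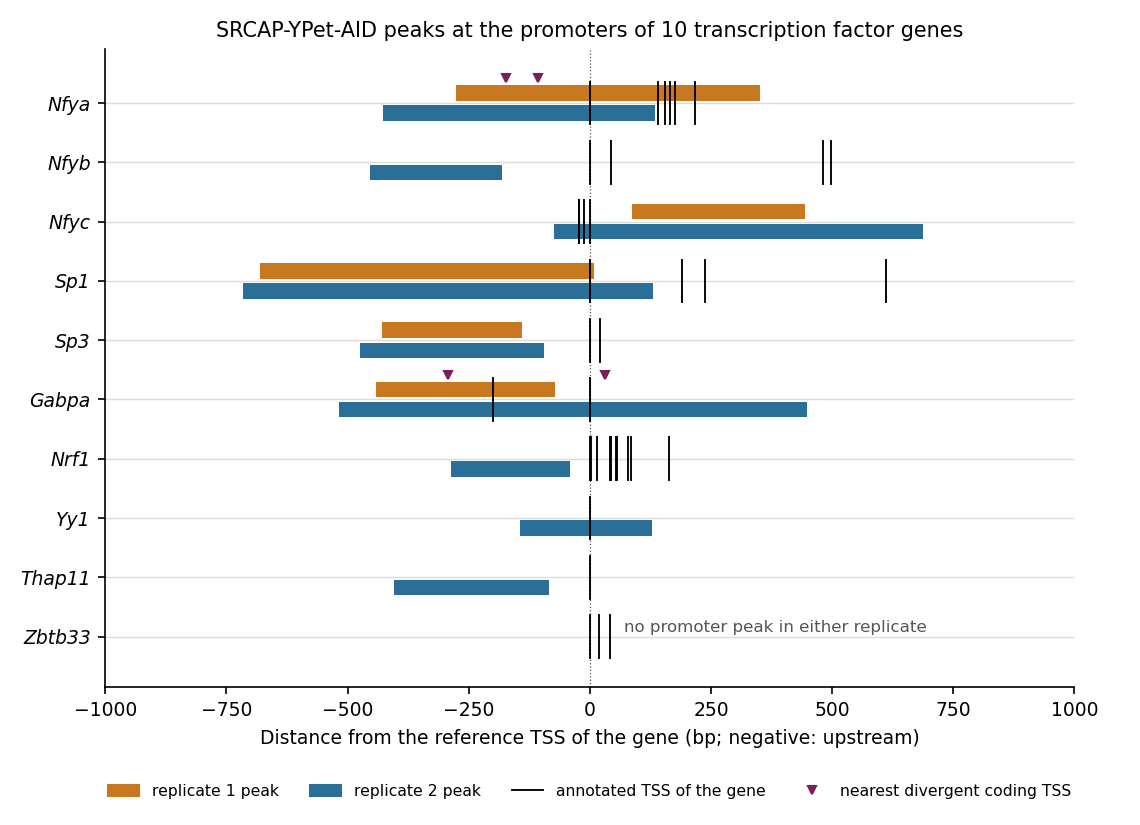
Promoter peaks (bars) of replicate 1 and replicate 2 at each factor gene, in bp from the TSS nearest to the replicate 2 peak (for Zbtb33 the 5′ end of the gene), with annotated TSSs of the gene as black lines and the nearest TSS of a divergent coding gene as triangles. The peaks of Nfyb, Nrf1, Sp3 and Thap11 end upstream of the TSS, the Nfyc peak of replicate 1 lies downstream of it and that of replicate 2 spans from upstream of it into the gene, and Zbtb33 has none.

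The NF-Y genes were called at Nfya and Nfyc in both replicates and at Nfyb in replicate 2 alone. NFYA carries the residues that recognise CCAAT, while NFYB and NFYC form a histone-fold dimer. At Nfya (chromosome 17, minus strand, 48386885 to 48409906 in mm10), the peak of replicate 1 spanned 48409554 to 48410183, was 630 bp wide and had a score of 41. The score of a peak is a whole number from the peak caller, read as 10 times the −log10 of its q-value, and can be ranked only within a list. That score exceeded 68.0% of the list. The replicate 2 peak spanned 48409772 to 48410332, was 561 bp wide and had a score of 67, above 83.7% of its list. Both thus stood in the upper part of their lists and shared 412 bp, 65.4% of the replicate 1 peak and 73.4% of the replicate 2 peak. Midpoints lay 37 bp downstream and 146 bp upstream of the outermost TSS, a mean of −54.5 ± 129 bp (SD, n = 2). Only the most upstream of its 5 promoter regions had a peak, which holds 6 of the 12 annotated TSSs.

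Nfya shares this promoter with Oard1, the gene of an ADP-ribose deacylase on the opposite strand, whose nearest TSS lies 108 bp from that of Nfya and inside both peaks. The midpoint of the replicate 2 peak was 28 bp from a TSS of Oard1, nearer than to any of Nfya, so the peak cannot be assigned to either gene. The stretch between the first exons of both genes, chr17:48409907-48410013, is inside both peaks and is shown because it is the whole intergenic stretch of this promoter. Sequences are printed from 5′ to 3′ on the strand of the named gene with motif matches of either strand in capitals, and this stretch of 107 bp, 61.7% GC, has none of the 7 motifs named above.
Nfya: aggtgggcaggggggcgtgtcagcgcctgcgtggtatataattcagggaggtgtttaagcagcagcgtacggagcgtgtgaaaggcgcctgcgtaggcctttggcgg

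The gene Nfyc (chromosome 4, minus strand, 120757438 to 120831572) has 10 TSSs in 7 separate promoter regions. It was called in 1 of them, an internal cluster of 4 TSSs, and the outermost TSS, at 120831572, had no peak in either replicate. The peak of replicate 1 spanned 120825239 to 120825596 (358 bp, score 25, above 35.1% of the list) and that of replicate 2 spanned 120824997 to 120825758 (762 bp, score 47, above 66.5%). The narrower peak lay entirely inside the wider one, which covered all 4 TSSs. Midpoints were 266 bp and 306 bp downstream of the nearest TSS, a mean of 286 ± 28.3 bp (SD, n = 2), and the peaks covered 5′ UTR and intron, with 291 of 358 bp and 584 of 762 bp intronic. Among the 10 genes, Nfyc was the only one with midpoints downstream of the nearest GENCODE TSS in both replicates, but RefSeq has a further start at 120825209, and the midpoints lay 209 bp and 169 bp upstream of it. The intronic part of the shared stretch, chr4:120825239-120825529, 155 to 445 bp downstream of the TSS, is printed because it holds more motif matches than the other sequences shown, 3 of CCAAT, 2 of GGGCGG and 1 of AANATGGC on either strand.
Nfyc: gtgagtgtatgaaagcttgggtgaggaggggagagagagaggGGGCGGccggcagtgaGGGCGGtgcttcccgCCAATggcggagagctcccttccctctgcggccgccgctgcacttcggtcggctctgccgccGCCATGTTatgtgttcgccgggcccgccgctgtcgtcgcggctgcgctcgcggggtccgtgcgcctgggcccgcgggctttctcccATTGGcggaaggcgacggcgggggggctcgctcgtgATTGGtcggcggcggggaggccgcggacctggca

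Nfyb (chromosome 10, minus strand, 82748701 to 82764144) had a peak of 272 bp in replicate 2, at 82764326 to 82764597, with a score of 26, above 29.6% of the list. It lay in intergenic sequence and ended 182 bp short of the outermost TSS, with its midpoint 318 bp upstream. This was the peak of lowest CpG ratio (0.354) and lowest GC content (52.9%) among those of the 10 genes, although the promoter window of Nfyb reaches a CpG ratio of 0.909. Replicate 1 had no peak nearer than 4663 bp upstream, a peak with a score of 17.

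Both Sp genes were called in both replicates, and Sp1 had the strongest peaks of the 10 genes. At Sp1 (chromosome 15, plus strand, 102406143 to 102436404), the peak of replicate 1 spanned 102405463 to 102406152 and was 690 bp wide, with a score of 120, rank 133 of 6158 and above 97.8% of the list. Replicate 2 had a peak at 102405427 to 102406274, 848 bp wide, with a score of 107, rank 600 of 12958 and above 95.2%. These were the only peaks at the 10 genes with scores above 100 and they stood near the top of both lists. The replicate 1 peak lay inside that of replicate 2, and the midpoints were 335 bp and 292 bp upstream of the first TSS, a mean of −313.5 ± 30.4 bp (SD, n = 2). Sp1 has 6 TSSs in 1 promoter region, and 1 of them, the outermost, lay inside each peak. The 300 bp before that TSS, chr15:102405843-102406142, are shown as the sequence under the strongest peaks. They hold 3 GC boxes, the motif of SP1 itself, and 2 matches of the NF-Y motif, at a GC content of 52.7%.
Sp1: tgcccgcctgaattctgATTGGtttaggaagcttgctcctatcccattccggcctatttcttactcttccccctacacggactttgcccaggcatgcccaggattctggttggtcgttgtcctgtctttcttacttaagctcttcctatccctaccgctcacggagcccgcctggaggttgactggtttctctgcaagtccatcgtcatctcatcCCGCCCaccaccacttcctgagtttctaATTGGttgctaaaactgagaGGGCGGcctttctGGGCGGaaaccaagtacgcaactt

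At Sp3 (chromosome 2, minus strand, 72936427 to 72980446), replicate 1 had a peak of 290 bp at 72980587 to 72980876 with a score of 43, above 70.7% of the list, and replicate 2 a peak of 380 bp at 72980541 to 72980920 with a score of 32, above 40.5%. Their midpoints differed by 1 bp, 286 bp and 285 bp upstream of the first TSS (mean −285.5 ± 0.707 bp, SD, n = 2), the smallest shift of the midpoint among the 5 genes. The peaks ended 141 bp and 95 bp before that TSS and covered no exon. They lie within introns of the antisense gene Sp3os and of the annotated coding gene Gm11084, so the strand and gene to which the SRCAP signal belongs cannot be told from the peak. The shared stretch, chr2:72980587-72980876, had 71.4% GC and 29 CpGs and no match of the 7 motifs, and it is shown as the site whose midpoints differed least between replicates.
Sp3: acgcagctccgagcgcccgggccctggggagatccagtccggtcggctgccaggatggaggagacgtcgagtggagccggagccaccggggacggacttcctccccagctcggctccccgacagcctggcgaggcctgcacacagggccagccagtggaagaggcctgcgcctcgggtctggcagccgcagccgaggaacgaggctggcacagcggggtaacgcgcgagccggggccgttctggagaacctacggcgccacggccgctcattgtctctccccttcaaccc

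**Figure D4:**
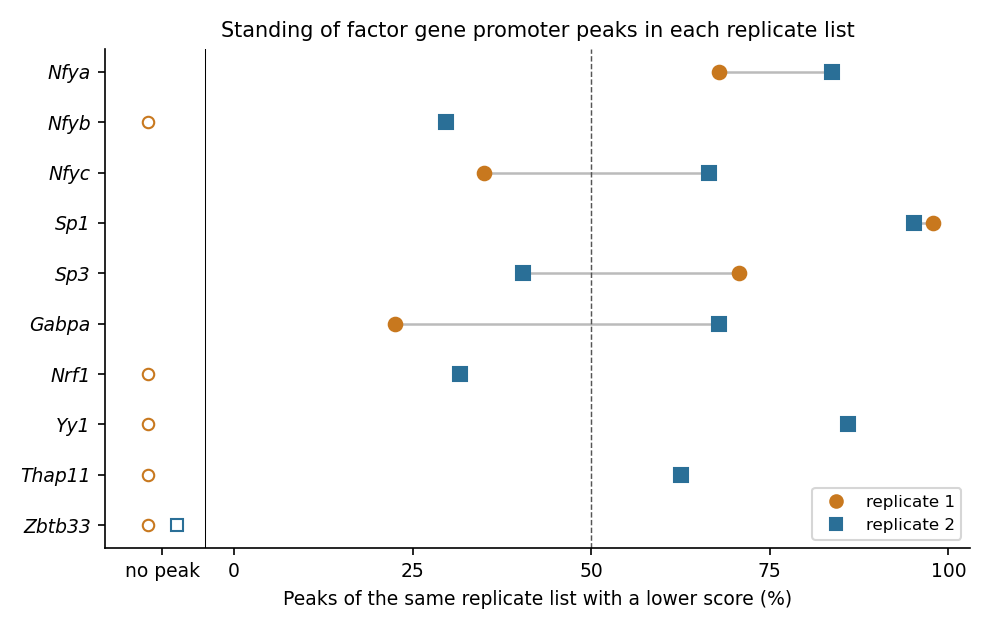
Percentage of peaks of the same replicate list that scored lower than the promoter peak of each factor gene (filled circles replicate 1, filled squares replicate 2, grey lines joining both, open symbols no peak, dashed line 50%). Sp1 stands above 95% of both lists, while Gabpa ranges from 22.6% to 67.9% and Nfyc from 35.1% to 66.5%.

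Gabpa (chromosome 16, plus strand, 84834925 to 84863779) was called in both replicates in the most upstream of its 4 promoter regions. The replicate 1 peak at 84834683 to 84835053 was 371 bp wide with a score of 23, above 22.6% of the list, and the replicate 2 peak at 84834607 to 84835572 was 966 bp wide with a score of 48, above 67.9%. The score was thus low in its list in replicate 1 and above the list median in replicate 2, where the peak was the widest of the 10 genes. The narrower peak lay inside the wider one and their midpoints were 222 bp apart. Gabpa shares both peaks with Atp5j, which encodes a subunit of the mitochondrial ATP synthase, on the opposite strand. The nearest TSSs of the pair are 31 bp apart, TSSs of Atp5j lay inside both peaks, and the replicate 1 midpoint was 36 bp from one of them. Annotated exons of both genes cover all bases of both peaks. Each peak held 2 matches of CCGGAAG, the motif of GABPA, and the first is shown with its flanks at chr16:84834848-84834877, from 77 to 48 bp upstream of the first TSS of Gabpa.
Gabpa: ccaccgttctaCTTCCGGccctggctccgc

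Nrf1 and Yy1 were called in replicate 2 only. At Nrf1 (chromosome 6, plus strand, 30047988 to 30153458) the peak at 30047701 to 30047948 was 248 bp wide, narrower than any other at the 10 genes, with a score of 27, above 31.6% of the list. It ended 40 bp before the first TSS, upstream of a cluster of 10 of the 16 annotated TSSs, and the nearest peak of replicate 1 lay 157832 bp downstream of that first TSS. At Yy1 (chromosome 12, plus strand, 108792973 to 108820148) the peak at 108792829 to 108793102 was 274 bp wide with a score of 72, above 86.0% of the list. Its midpoint lay 7 bp upstream of the first TSS, the closest of all 14 peaks to a GENCODE TSS, but 331 bp upstream of the RefSeq start. So the peak of Nrf1 ranked low in its list and that of Yy1 high, and neither had a counterpart in replicate 1, where the nearest peak to Yy1 was 42663 bp downstream of this TSS, at the mitochondrial carrier gene Slc25a29. The intergenic part of the Yy1 peak, chr12:108792829-108792972, is printed as the most GC-rich of the sequences shown (18 CpGs in 144 bp). It holds 1 match each of the NF-Y, SP1 and ZBTB33 motifs and none of the YY1 motif.
Yy1: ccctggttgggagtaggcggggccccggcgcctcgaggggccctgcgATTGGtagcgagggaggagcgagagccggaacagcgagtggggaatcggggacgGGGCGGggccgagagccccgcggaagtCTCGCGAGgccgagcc

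Thap11 and Zbtb33, the genes of Ronin and Kaiso, differed in their calls. Thap11 (chromosome 8, plus strand, 105855132 to 105856950), a gene with 1 TSS, had a peak of 321 bp in replicate 2 at 105854727 to 105855047, with a score of 44, above 62.6% of the list. It was intergenic, ended 85 bp before the TSS and had its midpoint 245 bp upstream. Replicate 1 had no peak there, the nearest being 5074 bp downstream at the promoter of Nutf2, a nuclear transport gene, with a score of 42. The 300 bp of the peak nearest to the TSS, chr8:105854748-105855047, are shown because they hold 1 match of ACTACAA, the motif of THAP11, on the minus strand, and 1 of GGGCGG.
Thap11: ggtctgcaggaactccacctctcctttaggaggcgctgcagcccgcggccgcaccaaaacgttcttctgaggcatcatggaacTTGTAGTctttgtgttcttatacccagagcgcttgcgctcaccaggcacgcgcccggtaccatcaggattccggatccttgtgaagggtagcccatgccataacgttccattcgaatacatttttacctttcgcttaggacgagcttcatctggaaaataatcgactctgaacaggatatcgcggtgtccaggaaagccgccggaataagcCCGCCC

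At Zbtb33 (chromosome X, plus strand, 38189793 to 38197046) no promoter peak was called in either replicate. Its 3 TSSs share 1 promoter region of 1542 bp. The nearest peak of replicate 2 was 9534 bp upstream of the TSS (38179944 to 38180259, score 64), and that of replicate 1 was 555497 bp upstream. Zbtb33 had the lowest GC content of the 10 promoters (51.6%) and a CpG ratio of 0.740, above that of Sp1. Both genes lie in group 8 by CpG ratio. In that group 26% of genes were called in replicate 1 and 51% in replicate 2. The missing call does not show that SRCAP was absent, because depth is unknown.

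**Figure D5:**
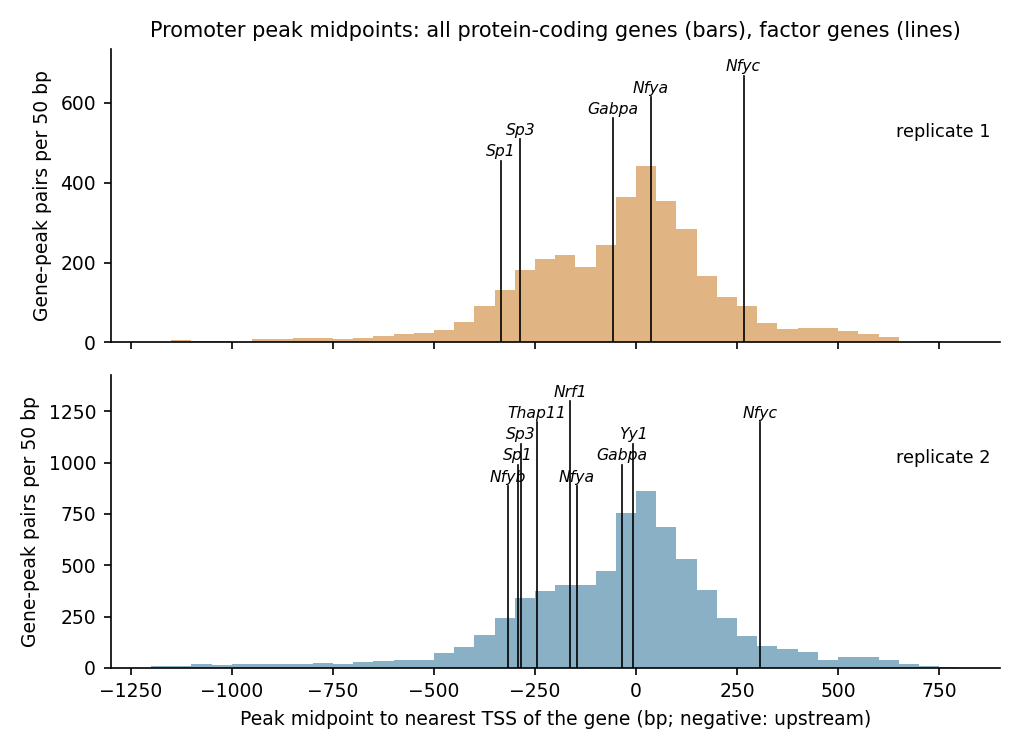
Midpoints of promoter peaks in bp from the nearest TSS of the gene for all protein-coding genes (bars of 50 bp, gene-peak pairs) and for the factor genes (labelled lines), replicate 1 above and replicate 2 below. In replicate 2, 8 of 9 factor genes lie left of 0, from −318 bp at Nfyb to −7 bp at Yy1, and Nfyc lies at 306 bp.

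To see which of the 7 motifs the promoters carry, the RefSeq promoter sequences (250 bp before to 50 bp after each start, GRCm38, both strands, motifs allowed to overlap) were searched. All 10 genes matched by symbol, with 16 promoters of 32851. GGGCGG was in 10 of the 16 promoters, at 8 genes (not Zbtb33 or Gabpa), against 35.7% of all promoters. CCAAT was in 6 of 16, at Nfya, Nfyc, Nrf1, Sp1 and Sp3, against 37.4%, and CCGGAAG in 4 of 16, at Zbtb33, Sp3, Gabpa and Thap11, against 8.86%. AANATGGC was found at Nfya, Nfyc and Gabpa (3 of 16, against 6.05%), CGCATGCG at Gabpa alone (1 of 16, against 1.87%) and CTCGCGAG at Nfyc alone (1 of 16, against 0.919%). ACTACAA was in none of the 16, against 3.24% of all, and the match under the Thap11 peak lies further upstream than that window. The background of all promoters was not matched for CpG ratio or GC content, in which the 10 genes are high. Promoters of a gene can overlap, so the 16 are not independent. The Yy1 promoter held 7 GC boxes, the most of the 16, but RefSeq places the start of Yy1 at 108793297, downstream of the GENCODE TSS and of the peak.

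The motif of the gene's own factor was looked for under the promoter peaks, beside its share under all peaks in promoter windows of coding genes (3090 in replicate 1 and 6211 in replicate 2). The NF-Y motif lay under 42.3% and 42.4% of these peaks, the GC box under 67.0% and 68.8%, the ETS motif under 15.4% and 18.0% and the THAP11 motif under 3.92% and 4.31%. The YY1 motif lay under 8.71% and 9.47%, and that of NRF1 under 2.85% and 3.65%. Nfyc had 3 and 5 CCAAT matches in the peaks of replicates 1 and 2, Sp1 4 and 6 GGGCGG matches, Gabpa 2 and 2 CCGGAAG matches, and Thap11 1 ACTACAA match in replicate 2. At Nfya, 4 CCAAT matches lay in the replicate 1 peak, which reaches further into the gene, and 0 in the replicate 2 peak. Nfyb, Nrf1, Sp3 and Yy1 had none under their peaks. The peaks are from 248 to 966 bp wide, and a match shows letters only, not binding.

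Among 30 related genes, of the same families, partners and other promoter factors, replicate 1 called 5 (16.7%) and replicate 2 called 11 (36.7%), with 4 in common (13.3%), near the shares of all genes. These were Sp4, Thap1, Thap2 and Zfp143. Sp4, a brain-enriched relative of Sp1, had peaks of 787 bp and 1531 bp with scores of 66 and 87, the widest of this list. Zfp143, whose product binds sites that overlap those of THAP11, had peaks of 456 bp and 617 bp with scores of 32 and 72. Thap1, of the same THAP zinc finger family as Thap11, had scores of 20 and 19 at 2 peaks in replicate 1 and 76 in replicate 2, and the Thap2 peaks of both replicates did not overlap. By class, 4, 5 and 3 of 16 family members had a peak in the first list, the second list and in both. The counts were 1, 4 and 1 of 6 partners and 0, 2 and 0 of 8 other promoter factors, beside 15.7%, 30.4% and 12.0% of all genes, and classes of this size were not tested. The partners called in replicate 2 included Gabpb1 and Gabpb2, which encode the partner subunit of GABPA, with scores of 16 and 23, and Hcfc1, the cofactor of THAP11, was not called in either.

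A divergent neighbour is a second feature that Nfya and Gabpa share with many called genes. Of all coding genes, 2708 (12.3%) have a coding TSS on the opposite strand within 1000 bp, and of these 29.4% were called in the first replicate, 54.0% in the second and 24.5% in both lists. Of the 10 genes, 2 have such a neighbour and both were called in both replicates. Yy1 shares its peak only with the window of Gm34220, a locus of annotation type TEC on the opposite strand whose TSS, 230 bp away, lay outside the peak. The remaining 6 called genes had no other gene's promoter window under their peaks.

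Of marker genes of the labelled cell type, promoter peaks were called in replicate 2 at 3 of 5 (Pou5f1, Sox2 and Zfp42) and in replicate 1 at 1 (Zfp42), with none at Nanog and Esrrb. Of 5 genes of other lineages, Sox17 was called in replicate 1 and Pax6 in replicate 2. The midpoint of the Pou5f1 peak lay further upstream than the promoter window reaches, so only part of that peak overlapped the window. Midpoints at Sox2 and Pax6 lay towards the upstream limit of the window, and those at Zfp42 and Sox17 closer to a TSS. Of all genes, 15.7% were called in replicate 1 and 30.4% in replicate 2, and the marker counts were not tested against these shares. SRCAP peaks do not report expression, so these calls do not check the label.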

How the data were processed

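SRCAP tagged with YPet and AID was mapped by CUT&Tag (antibody ab290 against GFP) in 2 samples of SYAT cells, with 200000 cells and 10000 Drosophila nuclei per sample and transposition for 1 h. For each sample the authors deposited 1 list of MACS2 peaks in mm10 with a score, a whole number of at least 13 that was read as 10 times the −log10 of the q-value, cut to a whole number, at a threshold of 0.05. The study's methods for ChIP-seq and CUT&Tag name STAR, Picard, a filter for the nuclear chromosomes, downsampling by Drosophila reads, peak calling and a blacklist, and its list of resources gives tool versions. Its reporting form gives a MACS2 call with an input library as control in the ChIP-seq part. Each list holds 6 mitochondrial peaks, which that filter would remove, so whether every step was applied to these lists is not known. The lists hold no read numbers, so depth and its effect on the calls are unknown, and scores were ranked only within a list. Intervals are 95% Wilson intervals and cover counting error only.

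Genes and TSSs came from GENCODE mouse release 21, and sequence from GRCm38, the assembly of mm10, in whose chromosome lengths all peaks fit. Background shares were taken over 21938 protein-coding genes on chromosomes 1 to 19, X and Y. Motifs were searched in RefSeq promoters of GRCm38 and under the peaks. Sequence is printed from outside annotated exons of the stretch shared by both replicates, or of the single peak, and up to 300 bases, except at Gabpa, where exons cover the peaks and 30 bases around a motif are shown. The genes, the 30 related genes, the cell type markers and the motifs were chosen with earlier results of these data known, and the groups by CpG ratio and divergent TSS were added after the data had been seen. Named genes were, by rule, the 10, genes whose promoter window overlapped one of their peaks, and related genes with a peak in both replicates. Also named were the listed cell type markers and, chosen after their values were seen, the genes whose introns hold the Sp3 peaks, the genes at the nearest peaks of uncalled members and the partners Gabpb1, Gabpb2 and Hcfc1. No genes of similar pattern were sought, since 2 lists give too few values. Alternatives changed the window, the TSSs, the overlap, the score minimum, the list length, merging and repeat content, and left out each replicate. The overlap code was tested on simulated data, where all 200 planted genes of 21938 were found. The scripts ran on Python 3.11.15 with pandas 2.3.3, numpy 2.4.6, matplotlib 3.10.9 and scipy 1.17.1.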

Additional observations from a re-analysis of the deposited data

How the results depend on the processing

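The counts of the 10 genes with a promoter peak (5 in replicate 1, 9 in replicate 2, 5 in both, 9 in at least 1) depended most on the score and on whether a TSS had to lie inside the peak. With a TSS inside the peak they were 3, 5, 3 and 5, the shares of all protein-coding genes in replicate 1, in replicate 2 and in both were 9.73%, 20.6% and 6.97%, and 2 of the 30 related genes had a peak in both. With peaks of a score of at least 50 only, they were 1, 3, 1 and 3, the shares of all genes were 4.21%, 13.1% and 2.99%, and 1 related gene remained. Sp1 was the gene called in both replicates at that score, with Nfya and Yy1 in replicate 2. With both lists at the length of the shorter one, 19.2% of all genes were called in replicate 2, and 6 of the 10. Leaving out replicate 2 gave 5 genes with a peak and leaving out replicate 1 gave 9, against 15.7% and 30.4% of all genes. The share of all genes with a peak in at least 1 replicate was not computed. Of 100 values of the number of replicates called per gene under 10 alternatives, 16 changed. The remaining counts and shares, under other windows, coding transcripts only, 1 TSS per gene, an overlap of 100 bp, merging of peaks under 500 bp apart and without repeat-rich peaks, stayed within 1.5 times the reported count. Added after the data had been seen, RefSeq starts in place of GENCODE TSSs put all 5 and all 9 midpoints upstream (3 and 8 with GENCODE). Median distances were 256 bp and 232 bp in place of 266 bp and 245 bp. Over the gene-peak pairs of all coding genes the medians rose to 189 bp and 194 bp from 136 bp and 138.5 bp, so the contrast became smaller. No paired analysis was possible because both samples belong to 1 group. Depth is unknown, so a missing peak does not show absence of SRCAP.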
